A study of Mus musculus with 4 samples.

Results

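The genes described here are the mouse Vps (vacuolar protein sorting), Snx (sorting nexin) and Chmp (charged multivesicular body protein) genes, members of the machinery that sorts cargo through endosomes. They were taken by name, as every gene whose symbol in the array annotation starts with Vps, Snx or Chmp followed by a digit, and were kept where the gene's probe set with the highest mean over the 4 arrays exceeded the 60th percentile of all values on at least 1 array. The name rule gave 75 of 18194 named genes, and 68 of them, 33 Vps, 26 Snx and 9 Chmp genes, passed the filter, against 9867 named genes that did so in all. The samples were bone marrow neutrophils, enriched with magnetic beads from C57BL/6 mice of 8 weeks. The 4 groups were miR-125a-/- (KO) cells after 3 h with lipopolysaccharide (LPS, the bacterial cell wall component sensed by Toll-like receptor 4), KO cells without LPS, miR-125a+/+ (wild-type, WT) cells after 3 h with LPS, and WT cells without LPS. RNA of 3 experiments was pooled for each group, and each pool was measured on 1 Affymetrix array. The number of mice behind a pool is not stated in the labels.

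With 1 array a group there was no replicate within a group and no test was made, and precision is limited by the small number of arrays. Values are log2 signals. A difference is the log2 signal of LPS minus unstimulated, or KO minus WT, and a gene was called higher or lower from a 2-fold difference (log2 of 1). Values under the 60th percentile (log2 6.80), the floor, were set to it, so where 1 of the pair is at the floor, the true difference may be larger and the value is given as a bound. The labels do not settle whether the unstimulated cells were also cultured for 3 h, so LPS and time in culture cannot be told apart. Of 15 neutrophil markers 13 were matched, and all 13 were above the floor on every array. The genotype labels were not checked, since the microRNA itself was not measured here.

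The microRNA missing in KO cells is shown with the other mature mouse microRNAs that carry the same seed, the stretch of bases 2 to 8 that pairs with targets, since the labels name no deletion at those loci. Sequences are from RefSeq (GRCm38.p6), 5′ to 3′, with the seed in capitals. The locus of miR-125a-5p is chr17:17830817-17830840 on the plus strand.
mmu-miR-125a-5p: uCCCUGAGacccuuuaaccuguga
mmu-miR-125b-5p: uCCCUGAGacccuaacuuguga
mmu-miR-351-5p: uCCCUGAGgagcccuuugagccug
mmu-miR-6367: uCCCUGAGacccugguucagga
mmu-miR-6394: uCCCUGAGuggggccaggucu
These 5 mature names come from 6 loci, miR-125b-5p having a pair of them.

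Endosomes receive membrane proteins taken up from the cell surface or sent from the Golgi and either pass them to lysosomes or return them. ESCRT complexes, which contain the Chmp proteins and some Vps proteins, sort ubiquitin-tagged cargo and pinch vesicles into the endosome lumen. Retromer, retriever and many sorting nexins carry cargo back to the Golgi or the surface, and the HOPS, CORVET, GARP and EARP complexes tether membranes before they fuse. In neutrophils this system meets phagosomes and granules, and many roles given below were first worked out in yeast.

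Most members differed little after LPS. In KO cells 4 of 67 measured members were higher (Snx10, Snx20, Snx8 and Vps26c), 2 were lower (Vps37a and Vps13a) and 61 were neither, with a median log2 difference of 0.05. In WT cells 2 of 65 were higher (Snx10 and Snx20), 3 were lower (Vps37a, Vps13a and Vps53) and 60 were neither, with a median of -0.01. Among all measured genes, 6.62% were called higher and 7.99% lower in KO cells (median -0.05), and 7.29% higher and 9.69% lower in WT cells (median -0.03). The called share, both directions together, was 8.96% of the members against 14.6% of all genes in KO cells, and 7.69% against 17.0% in WT cells. The split depended on the scaling: with the arrays set equal on their poly-A spike-in controls, 2 members were higher and 13 lower of 68 in KO cells, and 2 higher and 11 lower of 66 in WT cells. Of all genes on that scale, 3.21% were higher and 26.3% lower in KO cells, and 3.54% higher and 24.9% lower in WT cells. With the array medians set equal, 3 were higher and 2 lower in WT cells (10.7% and 6.47% of all genes), and with quantile normalization 2 and 2 (8.7% and 7.37% of all genes). On the poly-A scale the median over all genes shifted by -0.56 in KO and -0.51 in WT cells, and with median scaling by 0.10 in KO and 0.23 in WT cells.

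**Figure D1:**
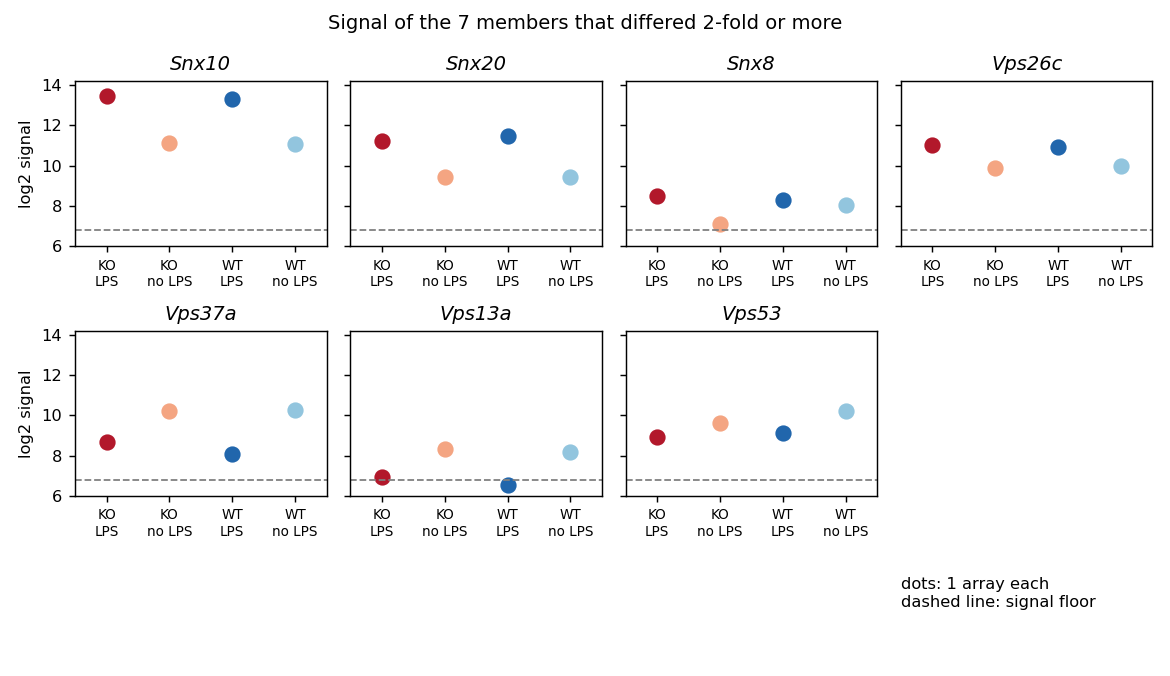
Log2 signal (vertical axis) of the 7 members called in either LPS comparison, on each of the 4 arrays (horizontal axis, 1 dot an array); the dashed line is the signal floor at 6.80. Snx10 and Snx20 are higher on both LPS arrays than on both unstimulated arrays, Vps37a and Vps13a lower on both, and Snx8 is lowest on the unstimulated KO array.

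Sorting nexins bind endosomal lipids through a PX domain, and those with the highest LPS differences were Snx10 and Snx20. Snx10, a small PX-only nexin needed for endosome and lysosome function in osteoclasts, had a log2 signal of 13.48 after LPS and 11.12 unstimulated in KO cells, and 13.31 after LPS and 11.05 unstimulated in WT cells. Both LPS arrays stood above both unstimulated ones. The difference was 5.12-fold in KO cells (rank 120 from the highest of 9580 genes) and 4.77-fold in WT cells (rank 152 of 9509). The second Snx10 probe set gave log2 differences of 1.69 in KO and 1.20 in WT cells.

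Snx20, which binds the leukocyte adhesion receptor PSGL-1, had a log2 signal of 11.20 after LPS and 9.44 unstimulated in KO cells, and 11.45 after LPS and 9.44 unstimulated in WT cells. The unstimulated values of the genotypes were the same to 2 decimals, and both LPS values were higher, 3.39-fold in KO and 4.01-fold in WT cells. The annotation gives 1 probe set for Snx20. Under the other scalings both genes were still called higher, with the lowest log2 differences on the poly-A scale. Those were 1.75 in KO and 1.69 in WT cells for Snx10, and 1.15 in KO and 1.44 in WT cells for Snx20. The mean over probe sets also left Snx10 called (2.02 in KO and 1.73 in WT cells). The other floors could not move either gene, whose signals lay above each of them. No probe set rule could move Snx20, which has 1 probe set.

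Markers of monocytes and macrophages also differed after LPS. Of 11 matched markers, 8 were above the floor on the LPS array and 6 on the unstimulated array of KO cells, and 9 on the LPS array and 6 on the unstimulated array of WT cells. Their summed unlogged signal was 44278 after LPS and 25654 unstimulated in KO cells, and 46814 after LPS and 25094 unstimulated in WT cells. None was listed at 0. Csf1r, the receptor of the macrophage growth factor, had log2 differences of 2.36 in KO and 2.64 in WT cells, while Ccr2, a chemokine receptor of monocytes, had -3.54 in KO and -3.88 in WT cells. The part of these cells in the Snx10 and Snx20 values was not tested, and in bulk RNA a change in the number of cells and in RNA per cell cannot be told apart.

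Snx8, a nexin with a membrane-bending BAR domain that works in endosome to Golgi transport, was called in KO cells and not in WT cells. Its log2 signal was 8.51 after LPS and 7.08 unstimulated in KO cells, and 8.29 after LPS and 8.07 unstimulated in WT cells. The 3 other arrays lay close together and the unstimulated KO array lay below them. That low value stands near the floor of 6.80, and dim probe sets scatter. The LPS difference was 2.70-fold in KO and 1.17-fold in WT cells, and the gap between these responses was a log2 value of 1.21. Snx8 has 1 probe set, and its KO difference was 0.82, short of 2-fold, on the poly-A scale.

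Other nexins with a BAR domain act with retromer in returning cargo. Snx1 had LPS differences of -0.61 in KO and -0.36 in WT cells, Snx2 had -0.56 in KO and -0.63 in WT cells, and Snx5 had -0.77 in KO and -0.75 in WT cells. Snx6, which pairs with Snx1 or Snx2 as Snx5 does, had 0.73 in KO and 0.43 in WT cells. All 4 Snx6 probe sets had positive differences in both genotypes, and the 4 Snx5 probe sets above the floor on every array had negative ones. On the poly-A scale, with its shift of all genes, Snx6 had 0.12 in KO and -0.14 in WT cells. Snx4, which recycles receptors, had 0.38 in KO and 0.43 in WT cells. Snx30 had -0.78 in KO cells, a bound because its LPS value was under the floor, and -0.19 in WT cells. Snx7 exceeded the floor on the unstimulated WT array alone (6.86).

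Among PX-only nexins other than Snx10, Snx3, which recruits retromer to early endosomes, had 0.44 in KO and 0.50 in WT cells, and its relative Snx12 had 0.33 in KO and 0.24 in WT cells. Snx11, the closest relative of Snx10, had 0.13 in KO and -0.11 in WT cells. Snx24 was under the floor on both LPS arrays and had 6.89 in KO and 7.59 in WT cells unstimulated. Its log2 differences were bounds of -0.09 in KO and -0.79 in WT cells. Without the floor they were -2.10 in KO and -1.99 in WT cells, so whether Snx24 counts as lower rests on the floor. Snx22 and Snx33 exceeded the floor by at most 0.14 and 0.05.

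Nexins of endocytosis and recycling showed small differences on the probe sets used. Snx18, which has an SH3 domain and shapes endocytic membranes, had 0.16 in KO and 0.07 in WT cells, and Snx9, its relative that binds dynamin, had 0.08 in KO and -0.07 in WT cells. Snx17, which retrieves integrins, had -0.24 in KO and -0.48 in WT cells, and Snx27, which links retromer to receptors with PDZ-binding tails, had 0.26 in KO and 0.13 in WT cells. Second probe sets, above the floor on every array, differed from these for Snx18 (0.89 in KO and -0.09 in WT cells). They also did for Snx27 (0.06 in KO and -0.67 in WT cells), while that of Snx9 gave 0.29 in KO and 0.07 in WT cells. The RGS or PXA domain nexins Snx13, Snx14, Snx19 and Snx25 ranged from -0.19 to 0.44 in KO and from -0.38 to -0.03 in WT cells. Snx15 had -0.12 in KO and -0.43 in WT cells, and Snx16 had -0.71 in KO and -0.10 in WT cells. Over all 25 measured nexins in KO cells the median was 0.08 with 3 higher and 0 lower, and over 24 in WT cells it was -0.07 with 2 higher and 0 lower. These counts stand against the 6.62% higher and 7.99% lower of all genes in KO cells, and 7.29% and 9.69% in WT cells.

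**Figure D2:**
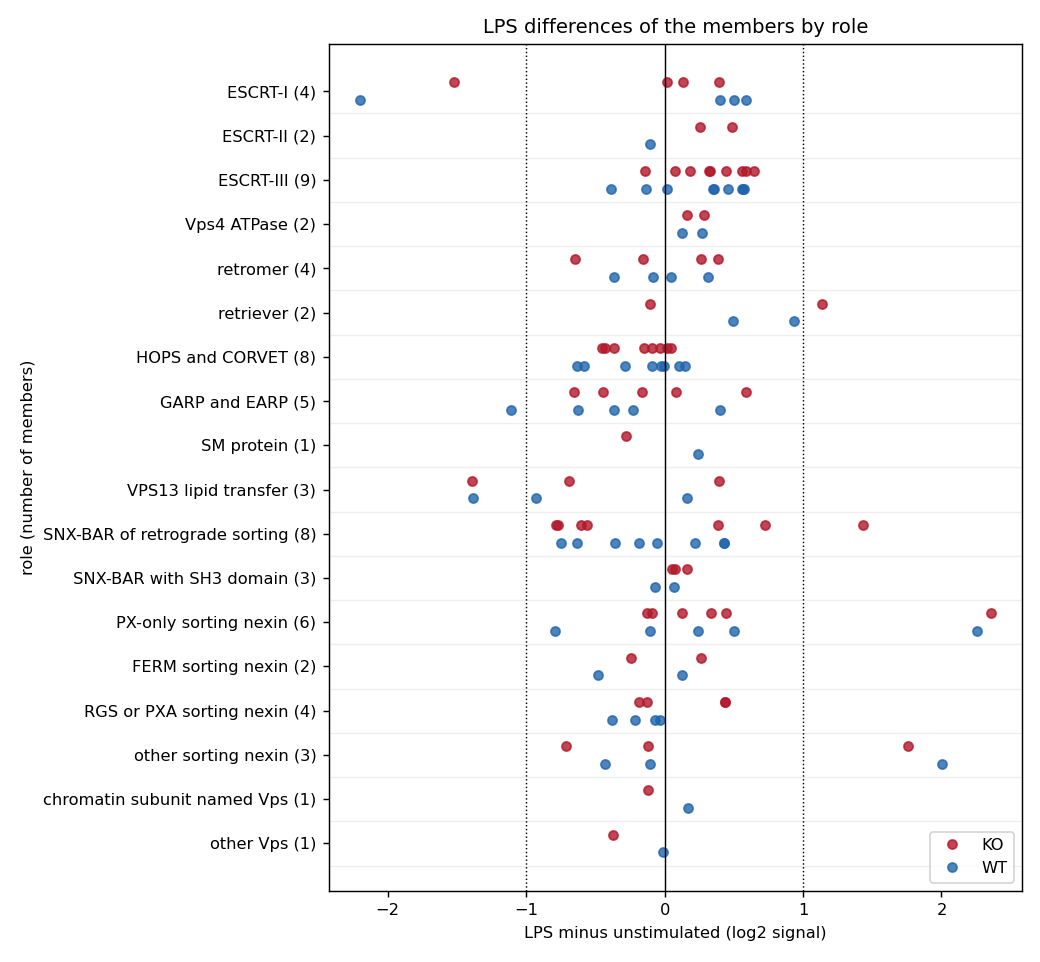
LPS minus unstimulated log2 signal (horizontal axis) of the members by role (vertical axis, number of members in brackets), with KO in red above WT in blue and 1 dot a gene; dotted lines mark 2-fold. Nearly all dots lie between the dotted lines, with Snx10 and Snx20 on the right and Vps37a and Vps13a on the left in both genotypes.

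In the ESCRT machinery, Vps37a was the only called member, of 17 measured in KO and 16 in WT cells. Over all genes 14.6% were called in KO and 17.0% in WT cells. Vps37a, an ESCRT-I subunit, had a log2 signal of 8.68 after LPS and 10.20 unstimulated in KO cells, and 8.09 after LPS and 10.28 unstimulated in WT cells. Both LPS arrays stood below both unstimulated arrays, 2.87-fold lower in KO cells and 4.59-fold lower in WT cells, where it ranked 76 from the lowest of 9509 genes. A second probe set gave -1.92 in KO and -2.95 in WT cells. Another one, also above the floor on every array, gave -0.65 in KO and 0.18 in WT cells, so the probe sets of this gene disagree in WT cells.

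The related ESCRT-I subunits did not share this pattern. Vps37b had 0.13 in KO and 0.50 in WT cells, Vps37c 0.02 in KO and 0.40 in WT cells, and Vps28, which they assemble with, 0.39 in KO and 0.59 in WT cells. The ESCRT-II subunit Vps36 had 0.26 in KO and -0.10 in WT cells. Another Vps36 probe set above the floor on every array gave -0.50 in KO and -0.86 in WT cells, so its sign in KO cells depends on the probe set. Vps25, its partner, exceeded the floor on the KO LPS array alone (7.28).

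None of the 9 ESCRT-III members, whose proteins polymerise into the spirals that cut membrane necks, was called, against 14.6% of all genes in KO and 17.0% in WT cells. Of the 9, 8 were above 0 in KO and 7 in WT cells on the probe sets used. Over all genes 4443 of 9580 were above 0 in KO and 4545 of 9509 in WT cells. The ESCRT-III median was 0.33 in KO and 0.36 in WT cells, and on the poly-A scale the shift of all genes exceeds both. Chmp1a had 0.56 in KO and 0.57 in WT cells, Chmp6, which starts the polymer, 0.44 in KO and 0.56 in WT cells, Chmp7, which acts at the nuclear envelope, 0.65 in KO and 0.46 in WT cells, and Chmp5 0.59 in KO and 0.36 in WT cells. Chmp4b, the main filament subunit, had 0.18 in KO and 0.35 in WT cells. Chmp2a had 0.32 in KO and 0.57 in WT cells, against 0.33 in KO and 0.01 in WT cells for its paralog Chmp2b. Chmp3 had 0.07 in KO and -0.13 in WT cells. Chmp1b, with -0.14 in KO and -0.39 in WT cells, ran the other way from Chmp1a on the probe set used. Some of these signs depend on the probe set. Other probe sets above the floor on every array gave 0.02 in KO and -0.36 in WT cells for Chmp1b. They gave 0.22 in KO and -0.15 in WT cells for Chmp2b, and 0.36 in KO and 0.20 in WT cells for Chmp3. The ATPases that take the polymer apart had 0.29 in KO and 0.13 in WT cells (Vps4a) and 0.16 in KO and 0.27 in WT cells (Vps4b).

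The cargo coats held 1 called member of 6 in KO cells and 0 of 6 in WT cells. The share over all genes was 14.6% in KO and 17.0% in WT cells. Vps26c, the arrestin-like subunit of retriever, had a log2 signal of 11.03 after LPS and 9.90 unstimulated in KO cells, and 10.91 after LPS and 9.97 unstimulated in WT cells. Both LPS arrays were above both unstimulated ones, 2.20-fold in KO cells and 1.92-fold in WT cells, so the genotypes lie on opposite sides of 2-fold with a gap between their responses of 0.20. Its difference reached 2-fold in WT cells too under median scaling (1.18) and fell short in KO cells on the poly-A scale (0.53). Vps35l, the other retriever subunit named here, had -0.10 in KO and 0.50 in WT cells.

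Retromer itself showed small differences on the probe sets used. Vps35, its core subunit, had 0.27 in KO and 0.05 in WT cells, and Vps29, shared with retriever, had 0.38 in KO and 0.31 in WT cells. Other Vps29 probe sets above the floor on every array gave 0.41 and -0.59 in KO cells, and 0.26 and -0.54 in WT cells. The alternative subunits Vps26a and Vps26b had -0.16 and -0.65 in KO cells, and -0.37 and -0.09 in WT cells.

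Among the tethers, Vps53 was the only called member, with 0 of 13 called in KO and 1 of 13 in WT cells. The share over all genes was 14.6% in KO and 17.0% in WT cells. Vps53, a subunit of GARP and EARP, had a log2 signal of 8.94 after LPS and 9.59 unstimulated in KO cells, and 9.13 after LPS and 10.24 unstimulated in WT cells. Both LPS arrays were below both unstimulated arrays, 1.58-fold in KO and 2.15-fold in WT cells. Other probe sets gave -0.20 and 0.20 in KO and -0.63 and 0.91 in WT cells, the last of them opposite in sign, and the WT difference fell short of 2-fold when the arrays were quantile normalized (-0.98), when they were median scaled (-0.86) and when all probe sets were averaged (-0.28). Vps54, the subunit that defines GARP, had -0.45 in KO and -0.63 in WT cells, Vps52 had -0.17 in KO and -0.23 in WT cells, and Vps51 had 0.59 in KO and 0.40 in WT cells. Another Vps51 probe set above the floor on every array gave -0.42 in KO and -0.26 in WT cells, opposite in sign. Vps50, which takes the place of Vps54 in EARP, had 0.08 in KO and -0.37 in WT cells.

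None of the 8 members grouped here under HOPS and CORVET was called, against 14.6% of all genes in KO and 17.0% in WT cells. The HOPS subunits Vps41 and Vps39 had -0.43 and 0.05 in KO cells, and -0.58 and -0.02 in WT cells. Vps11, Vps16 and Vps18, of the core common to both complexes, lay between -0.36 and -0.09 in KO cells and between -0.09 and 0.15 in WT cells. The SM proteins, which guide fusion, had -0.03 in KO and 0.00 in WT cells for Vps33a and -0.45 in KO and -0.63 in WT cells for Vps33b. Vps45, an SM protein grouped apart here, had -0.28 in KO and 0.24 in WT cells. Vps8, a CORVET subunit, had 0.02 in KO and -0.28 in WT cells.

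The VPS13 proteins form bridges through which lipids pass between organelles. Vps13a had a log2 signal of 6.93 after LPS and 8.32 unstimulated in KO cells, and 6.53 after LPS and 8.18 unstimulated in WT cells. The LPS arrays lay near the floor or under it and both unstimulated arrays well above it. The difference was 2.62-fold lower in KO cells and at least 2.61-fold lower in WT cells. In the mean over its probe sets the WT call was lost (a bound of -0.03), and both KO values were under the floor. Of its 4 other probe sets, none was above the floor on every array, and they ranged from -1.78 to 0.68 in KO and from -1.61 to -0.80 in WT cells. Vps13b had -0.69 in KO and -0.93 in WT cells, and Vps13d had 0.39 in KO and 0.16 in WT cells.

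The remaining names carry other functions. Vps72, a subunit of chromatin remodelling complexes and not of endosomes, had -0.12 in KO and 0.17 in WT cells, and Vps9d1 had -0.37 in KO and -0.01 in WT cells. The 7 genes left out by the signal filter were Chmp4c, Snx21, Snx29, Snx31, Snx32, Vps13c and Vps37d. At the edge, Vps13c reached 6.78 and lay just outside, and Snx33 reached 6.85 and lay just inside.

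**Figure D3:**
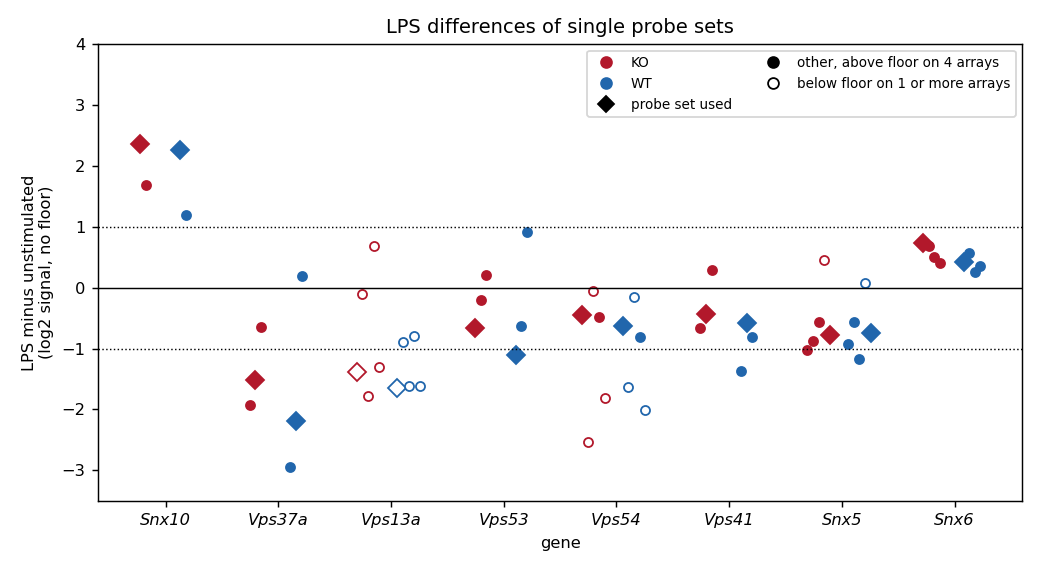
LPS minus unstimulated log2 signal without the floor (vertical axis) of every probe set of 8 members (horizontal axis), in red for KO and blue for WT; diamonds are the probe sets used, open symbols were under the floor on 1 or more arrays, and dotted lines mark 2-fold. The probe sets of Snx10, Snx6 and, where filled, Snx5 keep 1 sign in each genotype, and those of Vps53 lie on both sides of 0 in both genotypes.

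Several members could be compared between probe sets. Among 30 members with at least 2 probe sets above the floor on all 4 arrays, the sign of the LPS difference was the same in all probe sets for 20 in KO and 17 in WT cells. The Vps41 probe sets gave -0.67, -0.43 and 0.29 in KO cells and -1.37, -0.58 and -0.81 in WT cells. A single probe set represented 27 of the 68 members, Snx20, Snx8 and Vps26c among them.

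Endosome genes with other names were counted from a list of partners of these complexes. Of 36 listed symbols 33 were matched, all above the floor on at least 1 array. In KO cells 0 of 33 were called (median 0.10), and in WT cells 1 of 32 was higher and 0 lower (median 0.21), against 14.6% of all genes called in KO and 17.0% in WT cells. The called one was Hgs, the ESCRT-0 subunit that gathers ubiquitin-tagged cargo, with a log2 signal of 10.07 after LPS and 9.47 unstimulated in KO cells and 10.25 after LPS and 9.09 unstimulated in WT cells, a difference of 0.61 in KO and 1.17 in WT cells. Pik3c3, the lipid kinase that makes the endosomal lipid bound by PX domains, had 0.69 in KO and 0.97 in WT cells, and Washc2, an actin regulator bound by retromer, had -0.83 in KO and -0.64 in WT cells.

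The promoters of called members are shown where the sequence table held one and the gene was called in KO cells, as the stretch of 250 bases before the annotated start, in RefSeq's GRCm38.p6 sequence, 5′ to 3′ on the gene's strand. The NF-kB consensus, the AP-1 motif TGANTCA, the E-box CACGTG and the interferon response element (GAAA, any 2 bases, GAAA) were searched on both strands, and capitals mark a match. Of the 3 annotated Snx10 starts, the one shown has an AP-1 match, another has an interferon response element match and the remaining one has none.
Snx10 promoter, chr6:51523834-51524083, plus strand: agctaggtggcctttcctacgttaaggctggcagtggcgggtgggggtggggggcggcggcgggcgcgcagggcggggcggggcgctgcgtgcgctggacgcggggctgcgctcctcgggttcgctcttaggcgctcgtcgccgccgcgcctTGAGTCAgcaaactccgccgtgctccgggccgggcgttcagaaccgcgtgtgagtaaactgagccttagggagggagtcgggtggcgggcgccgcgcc
Snx8 promoter, chr5:140389309-140389558, minus strand: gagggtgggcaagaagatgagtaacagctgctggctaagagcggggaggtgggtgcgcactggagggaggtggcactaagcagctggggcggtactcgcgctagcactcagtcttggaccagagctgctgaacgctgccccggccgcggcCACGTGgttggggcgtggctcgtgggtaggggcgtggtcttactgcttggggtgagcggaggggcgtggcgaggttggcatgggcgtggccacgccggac
Vps26c promoter, chr16:94526630-94526879, minus strand: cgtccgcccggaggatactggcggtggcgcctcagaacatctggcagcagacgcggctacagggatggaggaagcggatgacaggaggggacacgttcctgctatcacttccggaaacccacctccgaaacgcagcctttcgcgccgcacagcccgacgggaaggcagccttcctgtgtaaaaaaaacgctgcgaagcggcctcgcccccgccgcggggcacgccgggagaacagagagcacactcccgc
Vps13a promoter, chr19:16780934-16781183, minus strand: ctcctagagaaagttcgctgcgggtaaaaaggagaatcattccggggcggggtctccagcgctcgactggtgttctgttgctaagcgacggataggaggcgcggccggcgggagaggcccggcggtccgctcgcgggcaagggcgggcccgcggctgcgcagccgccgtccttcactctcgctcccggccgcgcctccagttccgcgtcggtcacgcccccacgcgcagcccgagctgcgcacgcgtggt
The AP-1 match of Snx10 lies from 98 to 92 bases before the start, and the E-box match of Snx8 from 100 to 95 bases before it. No 2 matches overlap in these windows, and Vps26c and Vps13a hold none of the 4 motifs here. Of 32851 windows of this length, 7.25% held the NF-kB consensus, 6.75% the AP-1 motif, 6.02% the E-box and 2.98% the interferon response element. Among the 56 windows of 46 members these shares were 12.5%, 5.36%, 12.5% and 5.36%. A match describes letters and not a bound site.

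The LPS differences of the genotypes, which share no array, ran together. Across 64 members measured in both, the Pearson correlation was 0.857 and the Spearman correlation 0.763, against 0.892 and 0.832 across 9222 genes. These are correlations across genes, which are not independent replicates, and both genotypes were probed with the same probe sets. The sign was the same for 50 of 64 members, against 7616 of 9222 genes. Of the members, 4 were called in the same direction in both genotypes (Snx10, Snx20, Vps37a and, on the probe set used, Vps13a). Those 4 are 4 of the 6 called in KO and 4 of the 5 called in WT cells. The matching overlap over all genes is not given here.

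**Figure D4:**
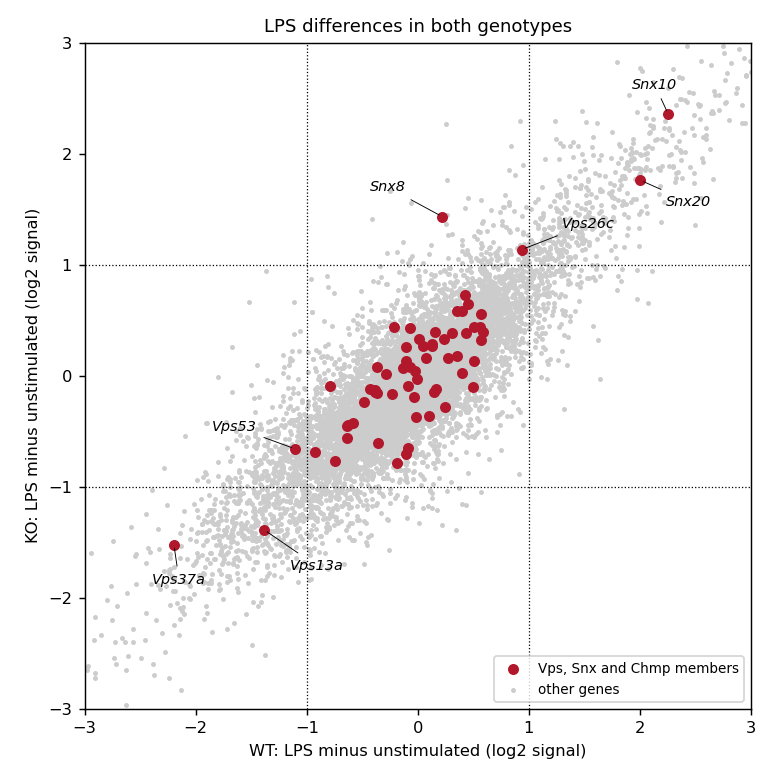
LPS minus unstimulated log2 signal in KO cells (vertical axis) against WT cells (horizontal axis) for the members (red) and other genes (grey, those beyond the axes not drawn); dotted lines mark 2-fold. Most members lie along the diagonal near 0, and Snx8 lies above it, with 1.43 in KO and 0.22 in WT cells.

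The next comparison sets KO against WT cells, where genotype and other differences between the pools cannot be told apart. None of 66 measured members was called in KO against WT cells, unstimulated or after LPS. Among all genes, 0.351% were called higher and 0.659% lower unstimulated (1.01% in all), and 0.615% higher and 0.626% lower after LPS (1.24% in all). The members' median was -0.06 unstimulated and 0.00 after LPS, against 0.00 and -0.01 over all genes. Unstimulated, the values lay between -0.99 and 0.48, and 63 of 66 were within 0.5 of 0. After LPS they lay between -0.57 and 0.59, with 62 of 66 within 0.5. These ranges hold for the probe sets used. Some others above the floor on every array went beyond them after LPS, among them Vps41 (0.64 and 0.70), Snx27 (0.64) and Snx5 (-0.78). Unstimulated, other Snx5 probe sets gave values from -0.81 to 0.64.

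The lowest unstimulated genotype difference was that of Snx8, 7.08 in KO and 8.07 in WT cells (-0.99), just under 2-fold. Snx24 followed with 6.89 in KO and 7.59 in WT cells (-0.70). Both KO values stand near the floor of 6.80. The highest was that of Vps18, with 8.44 in KO and 7.97 in WT cells (0.48). The other Vps18 probe sets, above the floor on every array, gave 0.24 and -0.22, so the sign depends on the probe set. After LPS Snx8 had 8.51 in KO and 8.29 in WT cells (0.23). Vps53 had 9.59 in KO and 10.24 in WT cells unstimulated (-0.64), and 8.94 in KO and 9.13 in WT cells after LPS (-0.20). Its other probe sets gave genotype differences of -0.23 and 0.54 unstimulated and of 0.20 and -0.17 after LPS, so the sign differed between probe sets at both times. Chmp1a was lower in KO by a like amount at both times, -0.42 unstimulated and -0.44 after LPS, and Vps33a had -0.39 and -0.42. Markers of eosinophils, basophils and mast cells were also lower in KO cells at both times: the summed unlogged signal of all 7 was 1571 in KO and 3622 in WT cells after LPS, and 1975 in KO and 4298 in WT cells unstimulated. Of these 7, 2 were above the floor in KO and 4 in WT cells after LPS, and 4 in KO and 5 in WT cells unstimulated, with none listed at 0. Prg2, a granule protein of eosinophils, had genotype differences of -1.10 unstimulated and -1.23 after LPS, and Mcpt8, a basophil protease, had -1.61 and -1.48. The part of these cells in the Chmp1a and Vps33a values was not tested.

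After LPS the highest values were those of Vps37a (8.68 in KO and 8.09 in WT cells, 0.59), Vps50 (8.08 in KO and 7.51 in WT cells, 0.56) and Snx25 (8.22 in KO and 7.67 in WT cells, 0.56). The lowest was that of Vps35l (9.63 in KO and 10.20 in WT cells, -0.57). Unstimulated, Vps37a had -0.09, Vps50 0.12, Snx25 -0.10 and Vps35l 0.03. None of these 4 values was repeated between times at a like size. The other Vps37a probe sets gave 0.92 and -0.36 after LPS, so its sign there depends on the probe set. So does that of Vps35l, whose other probe set above the floor on every array gave 0.09 after LPS.

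**Figure D5:**
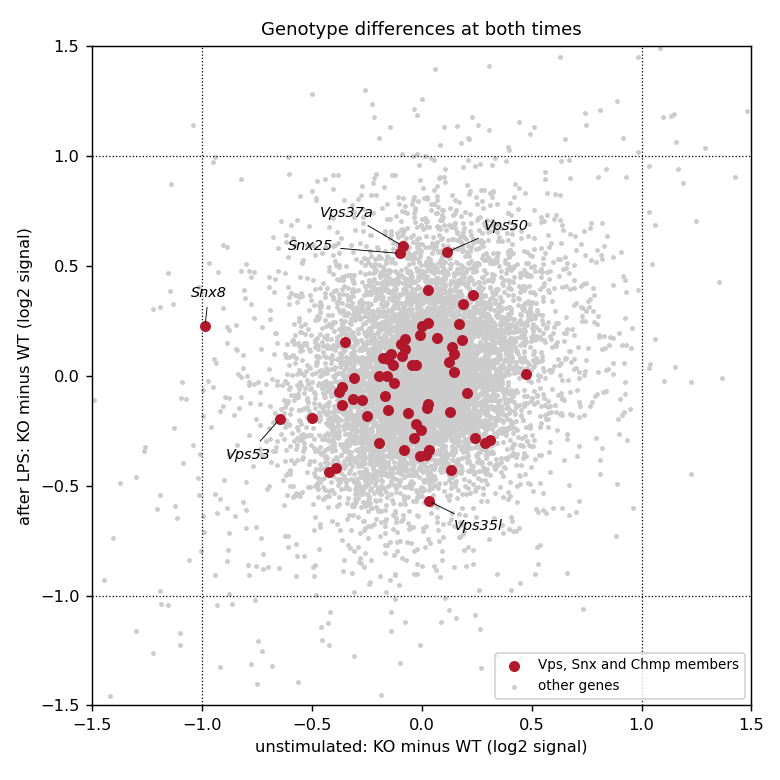
KO minus WT log2 signal after LPS (vertical axis) against unstimulated (horizontal axis) for the members (red) and other genes (grey, those beyond the axes not drawn); dotted lines mark 2-fold. All members lie inside the dotted lines, with Snx8 at -0.99 unstimulated and 0.23 after LPS.

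The genotype differences at the 2 times share no array. Across 64 members they gave Pearson's r of 0.0818 and Spearman's rho of 0.123, against an r of 0.281 and a rho of 0.204 across 8800 genes. The sign was the same for 37 of 64 members, against 5012 of 8800 genes. The gap between the LPS responses reached 2-fold for 1 of 61 members above the floor on all arrays, Snx8, against 1.66% of 8157 genes in both directions (1.01% higher in KO).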

How the data were processed

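Each probe set has a deposited log2 signal, which the authors made with MAS5 according to the submitters' processing notes, where no version is named. Unlogged, all 4 arrays had the same trimmed mean to within rounding (500.003 or 500.004, 2% removed at each end), so each had been scaled to 1 target, which hides a shift shared by most genes. MAS5 subtracts background on each array alone, so dim probe sets scatter. Probe sets above the floor made up 37.8% to 41.5% of an array.

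Of 45101 probe sets, 34958 had 1 gene symbol in the platform annotation, 932 several and 9211 none; only the first kind was used, and the probe set with the highest mean stood for its gene. All 75 identifiers were found in the GRCm38.p6 gene table, and 0 symbols changed. Values were computed in Python 3.11.15 with pandas 2.3.3. The code was run on simulated arrays with large changes in bright genes and little noise. That run checks the arithmetic only, and not the precision of single arrays or dim probe sets. With 1 array a group, no p-value or SD was computed. Any member could be named, and every called one is. Vps26c, Vps35l and Vps9d1 were given their roles after the values were seen. Members, lists and settings were chosen with earlier results of these data known. Alternatives were other scalings, floors, probe set rules and a 1.5-fold threshold.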

Additional observations from a re-analysis of the deposited data

Results flagged for a closer look

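In 5 members the genotype difference, or the LPS difference, had opposite signs in the groups compared, with LPS responses at least 1.5-fold apart. These differences were not tested, each group being 1 array. The gap between responses (KO minus WT) was 1.21 for Snx8, 0.68 for Vps37a, 0.65 for Snx25, -0.61 for Snx16 and -0.60 for Vps35l. For Vps37a a further probe set above the floor on every array had LPS differences of -0.65 in KO and 0.18 in WT cells, so the sign of the gap depends on the probe set. Snx25, a nexin with PXA and RGS domains, had LPS differences of 0.44 in KO and -0.22 in WT cells. Snx16, a PX domain nexin, had 6.93 after LPS and 7.64 unstimulated in KO cells, and 7.22 after LPS and 7.33 unstimulated in WT cells. Vps35l had 9.63 after LPS and 9.74 unstimulated in KO cells, and 10.20 after LPS and 9.71 unstimulated in WT cells, and its other probe set above the floor on every array gave LPS differences of 0.24 in KO and 0.27 in WT cells.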

How the results depend on the processing

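On the poly-A scale, members called after LPS numbered 2 higher and 13 lower in KO cells and 11 lower in WT cells, with medians of -0.51 in KO and -0.56 in WT cells, and genotype medians of 0.0163 unstimulated and 0.0346 after LPS. Median scaling gave LPS medians of 0.16 in KO and 0.23 in WT cells, -0.16 for KO against WT after LPS and -0.0389 for the gap between responses, and quantile normalization gave 0.14 for LPS in WT cells. Without a floor 3 were lower in KO and 4 in WT cells (10.4% and 12.3% of all genes). With the floor at the 50th percentile 4 were lower in WT cells (10% of all genes). The medians at that floor were 0.0150 for LPS in WT cells and 0.0089 for KO against WT after LPS. At the 75th percentile the LPS median in WT cells was 0.0150, and 1 member was lower after LPS in KO cells (5.92% of all genes). There 0 responses differed 2-fold (0.278% higher and 0.208% lower of all genes). In the mean over probe sets the LPS median in KO cells was -0.0917, and that of KO against WT after LPS was 0.0443 with 1 member higher (1.12% of all genes). Without probe sets marked as matching several transcripts, 2 members were higher after LPS in KO and 1 in WT cells (6.48% and 7.13% of all genes). In WT cells 4 were lower (11% of all genes). Snx10 and Vps26c had no probe set left, and the median of KO against WT after LPS was 0.0467. From 1.5-fold, 8 were higher and 9 lower in KO cells, and 4 higher and 9 lower in WT cells. Of all genes 13.8% were higher and 19.2% lower in KO, and 15.8% and 21% in WT cells. For KO against WT, 3 were lower unstimulated (3% of all genes) and 1 higher after LPS (4.41% of all genes). The responses of 3 were higher and of 2 lower (5.87% and 4.59% of all genes). Single probe sets, an alternative added after the data were seen, gave opposite signs for Vps13a in KO cells (0.68) and for Vps37a (0.18) and Vps53 (0.91) in WT cells. Unless the setting itself leaves genes out or moves the threshold, the cause was not tested. No paired analysis was possible because the labels carry no replicate numbers, and with 1 array a group no replicate could be left out. An additive fit of genotype and LPS over the 4 arrays, which leaves 1 residual degree of freedom, was not run.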

Other observations

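Probe sets annotated to 2 genes were left out of the comparisons. A pair that matches Ramp2 and Vps25 had log2 signals of 9.91 and 10.33 after LPS and 10.27 and 10.68 unstimulated in KO cells, and 10.39 and 10.71 after LPS and 10.34 and 10.75 unstimulated in WT cells. Which of these genes, the receptor modifier Ramp2 or the ESCRT-II subunit Vps25, gave that signal cannot be told apart. The probe set that matches Vps25 alone exceeded the floor on 1 array.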
